A study of Mus musculus with 8 samples.

Results

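The genes described here are 46 genes of DNA replication and cell division, 20 of replication and 26 of mitosis, taken by symbol from the 49315 gene identifiers of the count tables. All 46 were found, and all 46 passed the low-count filter, which kept 14909 genes for testing. Their messages were measured by RNA sequencing in 8 libraries of neutrophils that had been drawn into the peritoneal cavity of C57BL/6 mice, an inbred strain, with casein, a milk protein. The mice were 2 months old. They were either wild type or H2R deficient, which is read here as deficiency of the histamine H2 receptor, a G protein-coupled receptor encoded by Hrh2. Neutrophils of each genotype were purified in 2 populations, of low and of high density. This gives 4 groups of 2 libraries each, namely wild-type high density (libraries 2 and 4), wild-type low density (libraries 2 and 4), H2R-deficient high density (libraries 1 and 2) and H2R-deficient low density (libraries 1 and 2). The sources used here do not give how the receptor gene was altered or in which cells, how the densities were separated or how pure the fractions were. Whether paired libraries of a group stem from different mice is not stated either, so the p-values rest on a spread between libraries that may be technical.

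Neutrophils are short-lived phagocytes that stop dividing during maturation in the bone marrow, and cells that have left the marrow are as a rule not in the cell cycle. In a dividing cell, genes of DNA replication are switched on by E2F transcription factors before S phase: origins are licensed by Cdc6 and Cdt1, the Mcm2 to Mcm7 helicase opens the DNA, Pcna clamps the polymerases to it, and ribonucleotide reductase, thymidylate synthase and thymidine kinase supply the nucleotides. Genes of mitosis, whose promoters often hold CHR and CCAAT boxes, come later, in G2. Repression through the CHR boxes has ended by then, and the factors B-Myb and Foxm1 act. The mitosis genes encode the kinases that drive mitosis, the kinetochore that holds chromosomes to the spindle, and the motors that build the spindle.

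The promoters of the 2 classes held different letters. The stretches before the transcription start of 3 replication genes and 4 mitosis genes are shown as examples that hold such letters. Mki67 is among the 4 because its message differed little. Each is the 120 bases before the start in the RefSeq promoter table of mouse build GRCm38.p6, read 5′ to 3′ on the gene's strand. In the first 3, capitals mark E2F-like letters.
Mcm6, chr1:128359706-128359825, minus strand: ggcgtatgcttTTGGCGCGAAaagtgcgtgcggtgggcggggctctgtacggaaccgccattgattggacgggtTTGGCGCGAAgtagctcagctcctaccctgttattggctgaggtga
Rrm1, chr7:102441575-102441694, plus strand: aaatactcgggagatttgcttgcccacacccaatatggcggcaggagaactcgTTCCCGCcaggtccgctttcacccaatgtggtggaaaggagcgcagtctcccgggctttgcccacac
Uhrf1, chr17:56303217-56303336, plus strand: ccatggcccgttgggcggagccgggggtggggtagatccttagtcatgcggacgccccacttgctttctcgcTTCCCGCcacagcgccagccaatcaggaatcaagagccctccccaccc
In the next 4, capitals mark CHR-like letters and CCAAT, also where they stand on the opposite strand. The CCAAT matches of the Mki67 window lie upstream of the stretch shown, and its E2F-like match is not in capitals.
Cdk1, chr10:69352913-69353032, minus strand: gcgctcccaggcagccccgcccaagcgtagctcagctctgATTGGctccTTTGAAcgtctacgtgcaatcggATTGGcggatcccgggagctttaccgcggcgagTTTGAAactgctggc
Kif11, chr19:37376262-37376381, plus strand: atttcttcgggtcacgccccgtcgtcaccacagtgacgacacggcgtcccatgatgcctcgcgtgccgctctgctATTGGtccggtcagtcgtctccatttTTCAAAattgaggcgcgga
Top2a, chr11:99024190-99024309, minus strand: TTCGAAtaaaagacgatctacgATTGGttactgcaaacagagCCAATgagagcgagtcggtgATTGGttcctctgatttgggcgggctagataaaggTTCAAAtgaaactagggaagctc
Mki67, chr7:135716380-135716499, minus strand: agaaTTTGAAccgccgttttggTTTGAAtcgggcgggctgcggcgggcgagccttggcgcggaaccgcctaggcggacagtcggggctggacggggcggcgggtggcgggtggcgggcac

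A promoter window of 250 bases before to 50 bases after the start was held by that table for 37 of the 46 genes, 17 of replication and 20 of mitosis. Searched on both strands, E2F-like letters (TTCCCGC, or with other middle letters TTCGCGC, or likewise TTGCCGC, or finally TTGGCGC, whose matches may overlap each other) were present in 11 of 17 replication windows (64.7%) and in 3 of 20 mitosis windows (15%), against 9.69% of all 27025 windows. CHR-like letters (TTTGAA or TTCGAA) showed the opposite, with 3 of 17 replication windows (17.6%) and 15 of 20 mitosis windows (75%), against 19.4% of all windows. The letters CCAAT were in 52.9% and 85% of the windows of the 2 classes and in 37.9% of all windows, and all 15 mitosis windows with CHR-like letters also held CCAAT (75%, against 7.7% of all windows). The lists of other replication and other mitosis genes described further on had E2F-like letters in 52.8% and 28% of their windows and CHR-like letters in 19.4% and 72%. The windows of Tyms, Lig1, Tk1, Nusap1, Melk and Birc5 held no E2F-like, CHR-like or CCAAT letters. All of these genes were called higher at low density in H2R deficiency, as were 40 of the 46 genes and 30.0% of all genes tested. A match is only a match of letters and was not tested as a binding site. The Mki67 window holds CHR-like, CCAAT and E2F-like letters. Its message had the smallest difference of the mitosis genes called in H2R deficiency. A link between letters and levels was not tested.

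**Figure D1:**
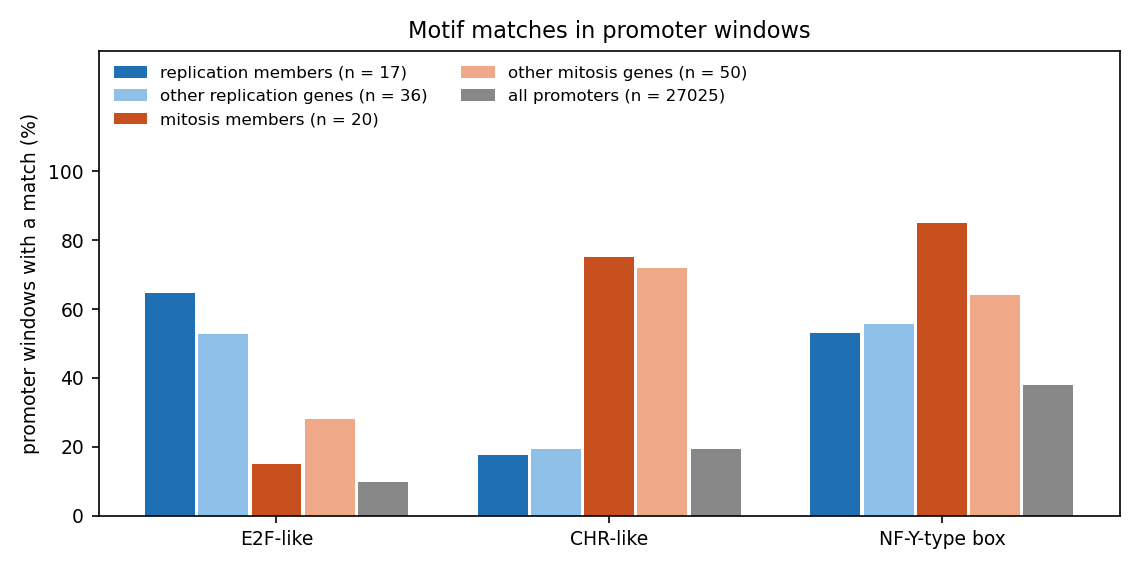
Percent of promoter windows that hold E2F-like, CHR-like or CCAAT letters (the last labelled NF-Y-type box) on either strand. Bars stand for each set of genes and for all windows of the table. E2F-like letters were in 64.7% of replication and 15% of mitosis windows, CHR-like letters in 17.6% and 75%.

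The libraries held 19862716 to 24199215 counts over genes, and the 46 genes together took 0.0121% to 0.102% of them. Levels are in CPM, counts scaled to a common library size after TMM correction. With 3 counts as the limit, a gene without counts could be at up to 0.0831 to 0.191 CPM depending on the library, which covers counting error only. Hrh2 itself was at 118 and 41.3 CPM in wild-type high-density libraries and 22.5 and 32.5 CPM in wild-type low-density libraries, and at 35 and 17.5 CPM and 12.1 and 7.6 CPM in the H2R-deficient ones. It was lower in H2R deficiency by a log2 difference of -1.60 ± 0.55 (SE) at high density and -1.48 ± 0.55 at low density, which edgeR did not call (adjusted p = 0.192 and 0.196). The deleted part of the gene is not given, so reads outside it check nothing. Markers of mature neutrophils (13 genes, such as S100a8 and Csf3r) were present in every library, at summed levels of 69075 to 79787 CPM at high density, 34770 and 48603 CPM in wild-type low-density libraries and 20864 and 29568 CPM in H2R-deficient low-density libraries. The TMM factors were 0.742 to 0.808 at high density and 1.11 to 1.49 at low density. Without them the median density difference over all genes tested moved from a log2 value of 0.10 to 0.67 (wild type) or 1.0 (H2R deficiency), so the changes given here are relative to the TMM scale. The split of all called genes moved with it, from 1269 higher and 619 lower to 4822 and 124 for wild type, and from 4478 and 3566 to 7690 and 387 for the H2R-deficient libraries.

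Most of the 46 genes were higher in low-density than in high-density neutrophils, in both genotypes, and none was called lower. In wild type 29 were called higher, 12 of 20 for replication and 17 of 26 for mitosis, where 8.51% of all genes tested were called higher and 4.15% lower. In H2R deficiency 40 were called higher, 17 of 20 and 23 of 26, where 30.0% of all genes were called higher and 23.9% lower. A call means an adjusted p under 0.05 in edgeR's quasi-likelihood test, with the Benjamini-Hochberg adjustment over all genes tested. All 29 genes called in wild type were among the 40 called in H2R deficiency, 11 more were called in H2R deficiency alone, and 6 in neither (Cdt1, Fen1, Ccne2, Ccnb2, Aurka and Kif23). Without the TMM factors all of these 6 except Kif23 were called higher in H2R deficiency (edgeR adjusted p = 0.00478 to 0.036). Ccnb2, Mcm4, Mki67, Cdc6, Melk and Ttk were then called higher in wild type as well (edgeR adjusted p = 0.0073 to 0.0466). The 2 comparisons use separate libraries but 1 common estimate of the spread.

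The median log2 difference over the 46 genes was 2.09 in wild type and 3.27 in H2R deficiency, where the median over all genes tested was 0.10 in each. Replication genes had medians of 1.90 and 2.81 and mitosis genes 2.27 and 3.85. Both low-density libraries lay above both high-density libraries for 39 of the 46 genes in wild type (35.1% of all genes tested) and for 44 in H2R deficiency (43.9% of all genes). For 36 genes all 4 low-density libraries lay above all 4 high-density ones (26.1% of all genes). Without the TMM factors 39 and 45 genes were called higher (32.3% and 51.6% of all genes). Fewer of the 46 genes were called in wild type with any library left out, and higher calls over all genes tested fell as well. The loss was steepest on dropping library 2 of wild type, from either density, so most of the wild-type calls depend on these libraries. The median over the 46 genes moved little. It was 1.99 when the high-density one was dropped and 1.88 when the low-density one was. Dropping any library kept the H2R-deficient median at 2.90 to 3.60.

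**Figure D2:**
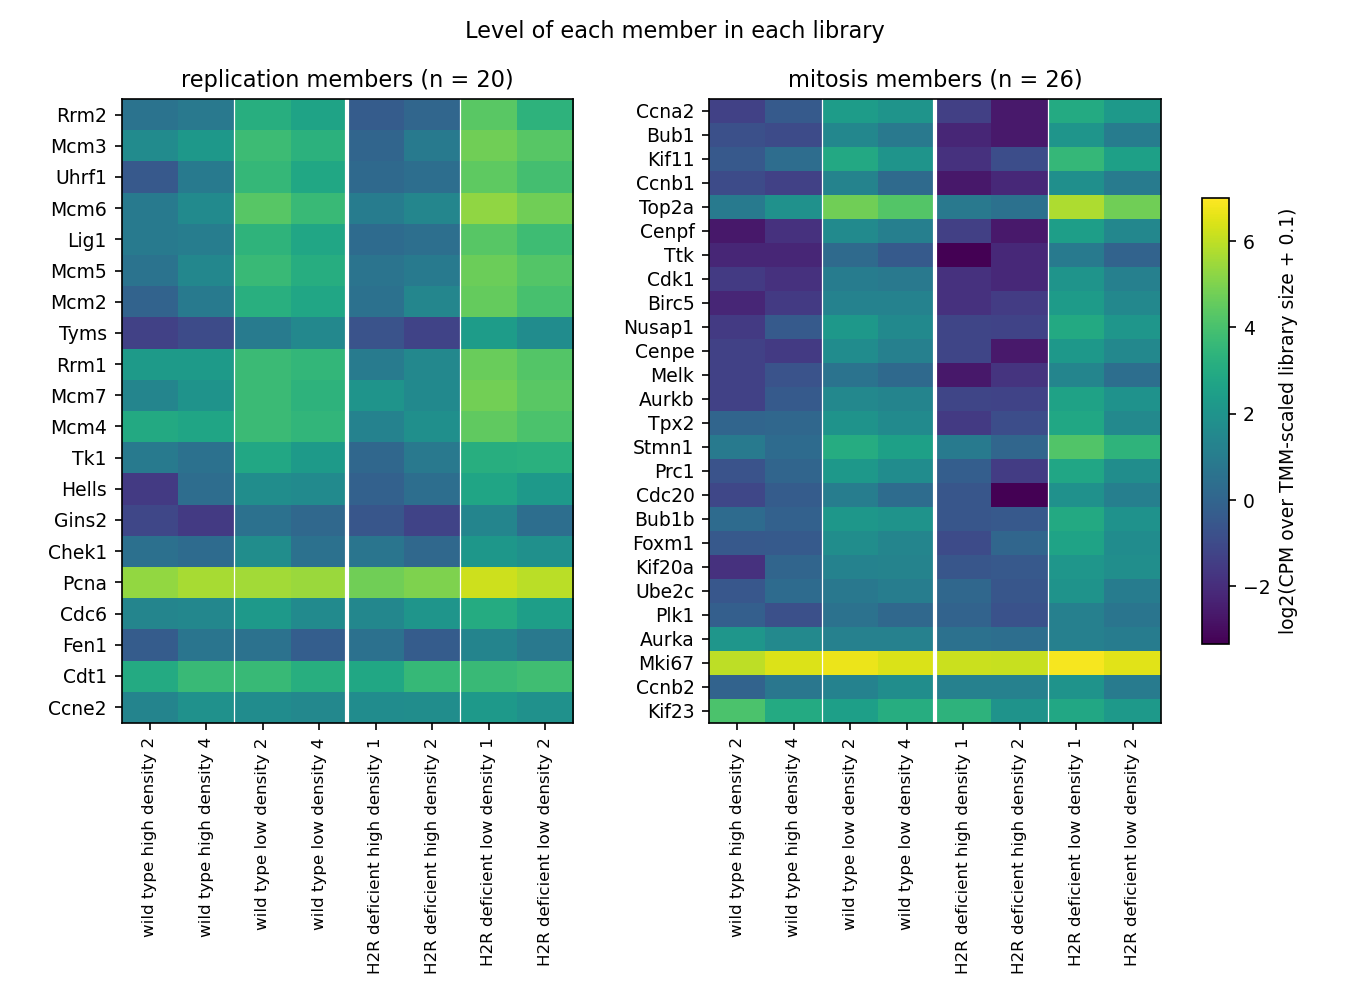
Level of each of the 46 genes in each of the 8 libraries, as the colour of log2(CPM + 0.1), with replication genes on the left, mitosis genes on the right and each panel sorted by the density difference in H2R deficiency. Most rows are lighter in the low-density libraries, the rows of Pcna and Mki67 are light throughout, and H2R-deficient low-density library 1 is above library 2 for 44 of the 46 genes.

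In bulk RNA, fewer cells of a type and less RNA per cell cannot be told apart, and the low-density libraries also held more RNA of other leukocytes. B cell markers were called higher for 11 of 12 genes in wild type and 12 of 12 in H2R deficiency. Their summed level was 68.9 and 77.3 CPM in wild-type high-density libraries and 513 and 232 CPM in the low-density ones, and 56.9 and 81.4 CPM against 914 and 1149 CPM in H2R deficiency, with no marker at 0 in every library. Dendritic cell markers were called higher for 6 and 7 of the 9 tested (of 10), with sums of 10.2 to 33.3 CPM in high-density libraries, 462 and 215 CPM in wild-type low-density libraries and 484 and 713 CPM in H2R-deficient low-density libraries. T and NK cell markers were called higher for 8 of 15 in each genotype, with sums of 10.4 to 33.7 CPM at high and 91.5 to 121 CPM at low density. The part of these cells in the levels of the 46 genes was not tested.

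Macrophage marker sums were 837 to 1033 CPM at high and 502 to 698 CPM at low density, although 6 of 12 were called higher and 3 lower in H2R deficiency and 0 in wild type (7 higher and 1 lower, and 1 higher, without the TMM factors). Plasma cell marker sums were 572 and 677 CPM at high and 650 and 763 CPM at low density in wild type, and 791 and 824 CPM against 411 and 486 CPM in H2R deficiency, with 3 and 5 of the 6 tested (of 7) called higher and 1 lower in H2R deficiency. The median log2 differences of the plasma cell markers were 2.23 and 2.69, and those of the T and NK cell markers 2.99 and 1.87. Erythroid markers fell, all 5 tested (of 8) in each genotype, from sums of 29.2 to 227 CPM at high to 0.139 to 1.49 CPM at low density. Of neutrophil precursor markers, 0 of the 8 tested (of 12) were called higher in either genotype and 2 were called lower in H2R deficiency, with sums of 3828 to 7826 CPM at high and 2944 to 4831 CPM at low density. Without the TMM factors 2 of the 8 were called higher in wild type and 0 lower in H2R deficiency, and the median there turned from -0.65 to 0.24. Mpo, Elane, Ctsg and Ms4a3, which mark early precursors of neutrophils in the marrow, had 0 to 7 counts in each library, while Prtn3, also of early precursors, had 6 to 37 and Fcnb 2 to 15. Markers of mature neutrophils fell, 3 of 13 in wild type and 13 of 13 in H2R deficiency (1 and 10 without the TMM factors).

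Among the replication genes, the helicase is the engine that unwinds DNA at the fork. Of its 7 genes (Mcm2 to Mcm7, and Gins2, a subunit of the GINS complex that joins the active helicase), 5 were called higher in wild type and 7 in H2R deficiency, with median log2 differences of 1.98 and 3.32. Mcm6 (GRCm38 chr1:128331590-128359664, minus strand), whose promoter letters are printed above, was at 1.83 and 3.01 CPM in wild-type high-density libraries and 19.7 and 12.8 CPM in wild-type low-density libraries. In H2R deficiency it went from 1.93 and 2.55 CPM at high density to 39 and 26.7 CPM at low density. The populations did not overlap in either genotype, and the log2 differences were 2.74 ± 0.34 (SE, edgeR adjusted p = 0.00496) and 3.88 ± 0.35 (adjusted p = 0.000203).

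Where values are set against each other from here on, those of the high-density libraries come first and those of the low-density libraries second, with the lower library number leading. Mcm2 resembled Mcm6, at 0.884 and 1.77 CPM at high against 9.08 and 6.85 CPM at low density in wild type, and 1.34 and 2.55 CPM against 23.2 and 15.7 CPM in H2R deficiency. Its log2 differences were 2.58 ± 0.41 and 3.32 ± 0.40, and those of Mcm5 2.36 ± 0.34 and 3.78 ± 0.36 and of Mcm7 1.87 ± 0.29 and 2.84 ± 0.29, all called. For Mcm3 and Mcm4, both H2R-deficient libraries lay below both wild-type libraries at high density and above both at low density. Mcm3 was at 3.06 and 4.49 CPM at high and 13.5 and 9.71 CPM at low density in wild type, and at 0.934 and 1.79 CPM and 27.1 and 19.7 CPM in H2R deficiency. Its differences of 1.62 ± 0.33 (edgeR adjusted p = 0.02) and 4.11 ± 0.37 (adjusted p = 0.000202) correspond to 3.08-fold and 17.3-fold. Mcm4 was at 7.66 and 6.67 CPM against 13.2 and 11 CPM in wild type, and at 2.28 and 3.38 CPM against 22.1 and 16.7 CPM in H2R deficiency. Its wild-type libraries did not overlap, yet its difference of 0.76 ± 0.25 was not called (edgeR adjusted p = 0.0701), while 2.78 ± 0.27 in H2R deficiency was. Without the TMM factors the wild-type difference was called too (edgeR adjusted p = 0.0073). Gins2 was low, at 0.236 to 0.584 CPM in high-density libraries, 1.34 and 1.02 CPM in wild-type and 2.52 and 1.24 CPM in H2R-deficient low-density libraries. It was called in H2R deficiency (2.04 ± 0.55) and missed in wild type (1.98 ± 0.59, edgeR adjusted p = 0.056). That call was lost without H2R-deficient high-density library 2 (adjusted p = 0.0772) or low-density library 1 (0.12), and wild type was called without the TMM factors (0.0136). Opposite-strand exons of Gse1 cover 67.3% of its exonic length, and the strand setting of the counting is not given, so its counts are uncertain.

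The genes of nucleotide supply were called higher in both genotypes, 4 of 4 each (Rrm1, Rrm2, Tyms and Tk1). Rrm2, the regulated subunit of ribonucleotide reductase, was at 1.41 and 1.71 CPM at high and 8.75 and 6.22 CPM at low density in wild type, and at 0.701 and 0.957 CPM and 20.5 and 10.2 CPM in H2R deficiency. The log2 differences were 2.26 ± 0.39 and 4.21 ± 0.42, and no low-density library came down to a high-density one. Tyms, thymidylate synthase, was at 0.295 and 0.413 CPM against 1.86 and 2.7 CPM in wild type and at 0.526 and 0.319 CPM against 5.07 and 3.11 CPM in H2R deficiency. It gave 2.67 ± 0.48 and 3.25 ± 0.47. Rrm1, the large reductase subunit, differed by 1.34 ± 0.24 and 3.24 ± 0.26, and thymidine kinase Tk1 by 1.93 ± 0.34 and 2.74 ± 0.35.

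Licensing factors and the sliding clamp had smaller differences than the median of the helicase genes they work with. Cdc6, which loads the helicase at origins, was at 2.47 and 2.66 CPM against 4.54 and 2.94 CPM in wild type, and at 2.63 and 4.02 CPM against 8.04 and 5.41 CPM in H2R deficiency. It was called in H2R deficiency (1.02 ± 0.34, edgeR adjusted p = 0.0297) and not in wild type (0.54 ± 0.35), and the first call was lost without H2R-deficient high-density library 1 (adjusted p = 0.168) or low-density library 1 (0.214). Without the TMM factors Cdc6 was called in wild type too (edgeR adjusted p = 0.0466). Its loading partner Cdt1 was at 7.9 and 12.5 CPM against 12.2 and 8.65 CPM and at 6.95 and 12.1 CPM against 12.5 and 14 CPM. The wild-type libraries of Cdt1 overlapped, and neither difference was called (0.03 ± 0.32 and 0.48 ± 0.32). Without the TMM factors the second difference was called (edgeR adjusted p = 0.00637). Pcna, the clamp, was at 40 and 50.6 CPM in wild-type high-density and 47.3 and 43.4 CPM in wild-type low-density libraries. In wild type the low-density libraries lay within the range of the high-density ones (0.00 ± 0.19), while in H2R deficiency it was at 27.1 and 32 CPM against 74.1 and 61.5 CPM and was called (1.20 ± 0.20, edgeR adjusted p = 0.00119). Its processed copies Pcna-ps1 and Pcna-ps2 had at most 9 counts in a library.

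The other fork enzymes split. Lig1, which seals the fragments of the lagging strand, was called in both genotypes (2.19 ± 0.31 and 3.83 ± 0.33), and Fen1, the nuclease that trims them, in neither. Fen1 was at 0.707 and 1.53 CPM against 1.38 and 0.744 CPM in wild type and at 1.34 and 0.702 CPM against 2.41 and 1.7 CPM in H2R deficiency. Without the TMM factors it was called in H2R deficiency (edgeR adjusted p = 0.0178). Opposite-strand genes cover 84.2% of its exonic length, so its counts are uncertain.

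Of the chromatin and checkpoint genes, 2 of 4 were called in wild type and 3 of 4 in H2R deficiency. Uhrf1, which reads hemimethylated DNA behind the fork, was at 0.648 and 1.83 CPM at high and 11.6 and 6.93 CPM at low density in wild type. In H2R deficiency it was at 1.05 and 1.21 CPM and 21.9 and 15.1 CPM, and its differences of 2.90 ± 0.45 and 4.03 ± 0.46 were close to those of Mcm6. Hells, a chromatin remodeller, was at 0.236 and 1.18 CPM against 3.28 and 2.94 CPM and at 0.818 and 1.21 CPM against 6.54 and 4.56 CPM. It was called in both (2.13 ± 0.56 and 2.45 ± 0.54). The kinase Chek1 was called in H2R deficiency (1.63 ± 0.45) and not in wild type (0.91 ± 0.46). Its call was lost without H2R-deficient high-density library 2 (edgeR adjusted p = 0.0884) or low-density library 1 (0.0686), and without the TMM factors wild type was called too (0.0419). Ccne2, cyclin E2 of the entry into S phase, was at 2.42 and 3.6 CPM against 3.12 and 2.7 CPM and at 3.15 and 3.25 CPM against 4.68 and 3.61 CPM. It differed by -0.05 ± 0.30 and 0.37 ± 0.30 and was called in neither. Without the TMM factors it was called in H2R deficiency (edgeR adjusted p = 0.00927).

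**Figure D3:**
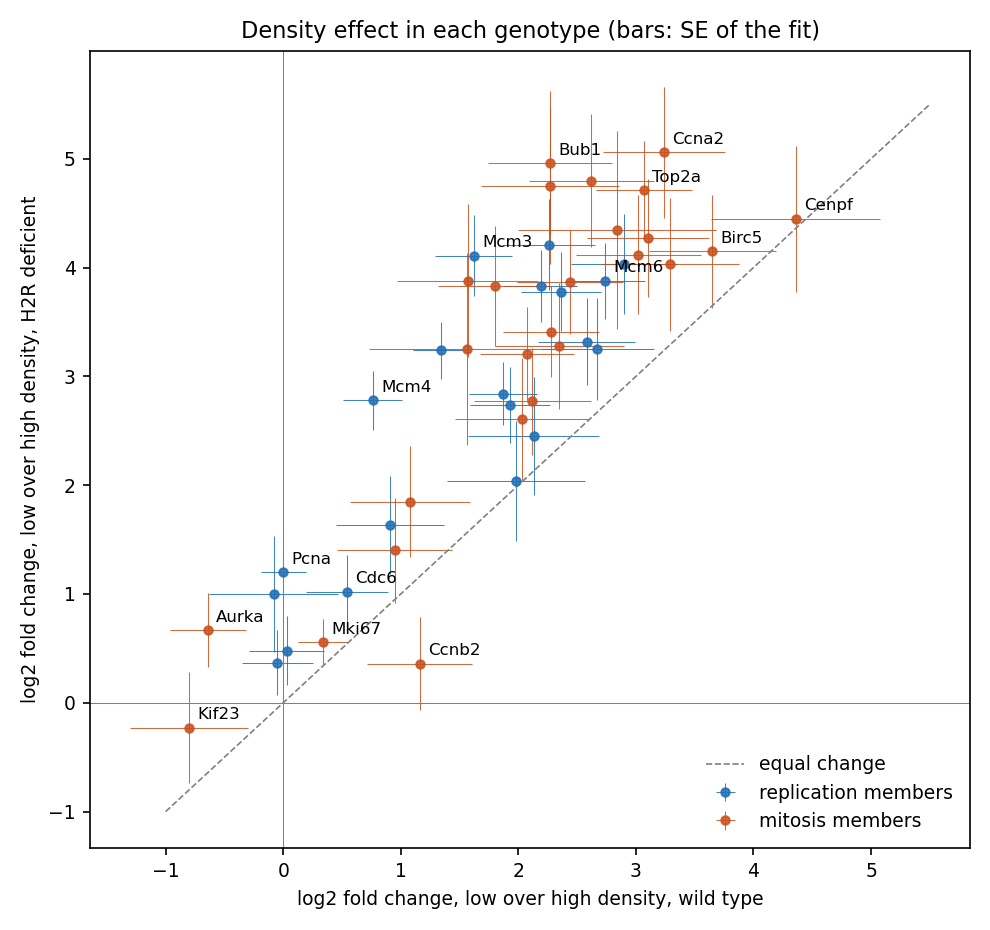
Log2 difference of low against high density in H2R deficiency (vertical) against wild type (horizontal), each point 1 of the 46 genes with its standard error, and the line of equal difference. The 2 axes come from separate libraries, 45 points lie above the line, and Kif23, Aurka and Mki67 are among the genes low on both axes.

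Among the mitosis genes, those of chromosomes and kinetochores had median differences of 3.29 in wild type and 4.15 in H2R deficiency, and 4 and 5 of 5 were called. Top2a, the topoisomerase that untangles sister chromosomes, was at 1.83 and 3.6 CPM at high and 26.8 and 18.8 CPM at low density in wild type, and at 1.69 and 1.34 CPM and 52.5 and 27.4 CPM in H2R deficiency. Its differences were 3.07 ± 0.41 (edgeR adjusted p = 0.00681) and 4.71 ± 0.45 (adjusted p = 0.000221), 8.4-fold and 26.2-fold. Birc5, survivin of the chromosomal passenger complex, was at 0.118 and 0.236 CPM against 2.27 and 2.31 CPM and at 0.175 and 0.255 CPM against 5.02 and 2.76 CPM. It gave 3.65 ± 0.54 and 4.15 ± 0.52, with 2 to 4 counts in each high-density library, so the size is loosely fixed.

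The kinetochore motor Cenpe was at 0.295 and 0.236 CPM at high and 3.12 and 2.15 CPM at low density in wild type, and at 0.35 and 0.0638 CPM and 4.38 and 2.69 CPM in H2R deficiency. Cenpf, a kinetochore protein of G2 and mitosis, was at 0.0589 and 0.177 CPM against 3 and 2.07 CPM and at 0.292 and 0.0638 CPM against 5.49 and 2.65 CPM. Their differences were 3.29 ± 0.59 and 4.03 ± 0.61 for Cenpe and 4.36 ± 0.72 and 4.45 ± 0.67 for Cenpf. In both, the high-density libraries were near or below the detection limit of a library, so the size of the difference is loosely fixed.

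Mki67 stood apart from this group. Its product Ki-67 coats mitotic chromosomes and is used as a label of dividing cells, yet its message was at 62.8 and 87.9 CPM in wild-type high-density libraries and 73 and 69.4 CPM in the H2R-deficient ones, against 104 and 86.4 CPM and 116 and 93.5 CPM at low density. Of the counts on the 26 mitosis genes, 65% and 75.2% were Mki67 in wild-type high-density libraries and 38% and 47.7% in H2R-deficient low-density libraries. The wild-type libraries overlapped and were not called (0.34 ± 0.21, edgeR adjusted p = 0.287). Without the TMM factors wild type was called (edgeR adjusted p = 0.0205). The call in H2R deficiency (0.56 ± 0.21, adjusted p = 0.0494) was lost by DESeq2 (adjusted p = 0.0535) and without any 1 of the 4 H2R-deficient libraries (0.0567 to 0.262).

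Of the mitotic kinases and cyclins, 4 of 9 were called in wild type and 7 of 9 in H2R deficiency. Cdk1, the kinase that starts mitosis, was at 0.236 and 0.177 CPM at high and 1.9 and 1.72 CPM at low density in wild type, and at 0.175 and 0.128 CPM and 3.91 and 2.16 CPM in H2R deficiency. It gave 3.10 ± 0.52 and 4.27 ± 0.54, with 2 to 4 counts in each high-density library, so the size is loosely fixed. Its partner cyclin Ccna2 was at 0.295 and 0.649 CPM against 5.11 and 3.91 CPM and at 0.292 and 0.0638 CPM against 7.84 and 4.67 CPM, with 3.24 ± 0.52 and 5.06 ± 0.60. The H2R-deficient high-density libraries had 5 and 1 counts of Ccna2, so the second size is loosely fixed too. Ccnb1, cyclin B1, was at 0.412 and 0.295 CPM against 2.35 and 1.1 CPM in wild type (2.27 ± 0.59, edgeR adjusted p = 0.0382). In H2R-deficient high-density libraries Ccnb1 had 3 counts in all against 174 at low density, a ratio of 29.5 with a 95% counting interval of 9.94 to 145.

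Cyclin B2 (Ccnb2) did not follow cyclin B1, at 0.884 and 1.59 CPM against 2.31 and 3.25 CPM in wild type and 2.22 and 2.23 CPM against 3.82 and 1.87 CPM in H2R deficiency. It was called in neither genotype (1.16 ± 0.45 and 0.36 ± 0.43), and a processed copy, Ccnb2-ps, had up to 24 counts in a library. Without the TMM factors Ccnb2 was called in both genotypes (edgeR adjusted p = 0.0225 and 0.036). The 2 Aurora kinases also differed. Aurkb, of the passenger complex, was called in both genotypes (2.44 ± 0.45 and 3.87 ± 0.48), whereas Aurka, of the spindle poles, was at 4.18 and 2.77 CPM against 2.23 and 2.23 CPM in wild type and 1.34 and 1.21 CPM against 2.16 and 1.91 CPM in H2R deficiency. Aurka had opposite signs in the 2 genotypes (-0.64 ± 0.32 and 0.67 ± 0.34), and neither was called. Without the TMM factors the values were -0.06 and 1.58, and the second was called (edgeR adjusted p = 0.00478). Plk1, a kinase of mitotic entry and exit, was at 0.766 and 0.472 CPM against 1.38 and 1.02 CPM and at 0.876 and 0.511 CPM against 2.16 and 1.52 CPM. It was called in H2R deficiency (1.40 ± 0.48, edgeR adjusted p = 0.0335) and not in wild type (0.95 ± 0.49). The Plk1 call was lost with DESeq2 (adjusted p = 0.077) and without H2R-deficient high-density library 2 (0.164) or either low-density library (0.186 without 1 and 0.0547 without 2), and wild type was called without the TMM factors (0.0478). Melk, a kinase of proliferating cells, was also called in H2R deficiency alone (3.88 ± 0.70, against 1.57 ± 0.60). The checkpoint kinase Ttk missed the call in wild type (2.84 ± 0.84, edgeR adjusted p = 0.0543). In H2R deficiency, where it was called, it had 2 counts in all at high density and 91 at low density, a ratio of 23.2 with a counting interval of 6.23 to 194.

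The checkpoint and anaphase genes (Bub1, Bub1b, Cdc20 and Ube2c) were called for 2 of 4 in wild type and 4 of 4 in H2R deficiency. Bub1, a checkpoint kinase at kinetochores, was at 0.471 and 0.413 CPM against 2.63 and 1.68 CPM in wild type (2.27 ± 0.53). In H2R deficiency it had 3 counts in all at high and 201 at low density, a ratio of 34.1 with a counting interval of 11.5 to 167. Cdc20, the activator of the anaphase-promoting complex, was at 0.354 and 0.708 CPM against 1.99 and 1.17 CPM in wild type, which was not called (1.56 ± 0.83). In H2R deficiency it was at 0.584 and 0 CPM against 3.66 and 2.12 CPM and was called (3.25 ± 0.88, edgeR adjusted p = 0.0133). The size is not fixed, since high-density library 2 had no count: it was 2.30 without that library, and without library 1 the remaining high-density library is at 0 and gives no fold. The call was lost without low-density library 1 (edgeR adjusted p = 0.064). Bub1b, of the same checkpoint, was called in both genotypes (2.07 ± 0.40 and 3.21 ± 0.43), and Ube2c, the ubiquitin-conjugating enzyme of that complex, in H2R deficiency (1.85 ± 0.51) but not in wild type (1.08 ± 0.51). The Ube2c call was lost without H2R-deficient high-density library 2 (edgeR adjusted p = 0.0823) or low-density library 1 (0.119), and without the TMM factors wild type was called too (0.0406).

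Of the motor and spindle genes, 6 of 7 were called in each genotype, with Kif23 as the exception in both. Kif11, which pushes the spindle poles apart, was at 0.648 and 1.18 CPM at high and 7.38 and 3.95 CPM at low density in wild type, and at 0.175 and 0.447 CPM and 11.6 and 5.69 CPM in H2R deficiency. It gave 2.62 ± 0.53 and 4.80 ± 0.61. Stmn1, stathmin, which destabilises microtubules, was at 1.77 and 1.12 CPM against 8.27 and 5.79 CPM and at 1.75 and 0.957 CPM against 18.5 and 10.5 CPM. Its differences were 2.28 ± 0.41 and 3.41 ± 0.42. The spindle genes Tpx2 (1.80 ± 0.48 and 3.83 ± 0.55), Nusap1 (3.02 ± 0.53 and 4.12 ± 0.55) and Prc1 (2.35 ± 0.55 and 3.28 ± 0.58) and the motor gene Kif20a (2.03 ± 0.57 and 2.61 ± 0.56) were called in both genotypes. Kif23, a motor of the midzone in the last step of division, was at 16.6 and 7.85 CPM against 5.59 and 8.46 CPM and at 10.1 and 3.83 CPM against 7.15 and 4.74 CPM. Its populations overlapped in both genotypes (-0.80 ± 0.50 and -0.23 ± 0.51), and without the TMM factors the second value turned to 0.68. Foxm1, a transcription factor of mitotic genes, was called in both: at 0.648 and 0.649 CPM against 3.2 and 2.47 CPM (2.12 ± 0.50) and at 0.409 and 0.957 CPM against 6.18 and 3.11 CPM (2.77 ± 0.49).

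Opposite-strand genes also cover 33.2% of the exonic length of Kif20a, 22.8% of Ube2c, 17.4% of Ccne2, 12.5% of Ccna2 and 11.1% of Prc1, and genes on either strand 12.6% of Mcm7, so that part of their counts is uncertain.

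On a scale that allows genes to be compared (mean CPM per kilobase of exon), several of the abundant genes of the set had small density differences. At high density in wild type Pcna was at 18.9, Mki67 at 7.49 and Cdt1 at 3.25 CPM per kilobase, and at low density at 18.9, 9.48 and 3.33. Top2a was at 0.301 and 2.53 at high and low density in wild type and at 0.168 and 4.43 in H2R deficiency, and so stayed below Mki67, at 10.4, in H2R-deficient low-density libraries. The same pairs for Cenpf were 0.00765 and 0.164, and 0.0115 and 0.264. Exonic length is the union of annotated exons, so a gene that uses a short transcript is understated.

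**Figure D4:**
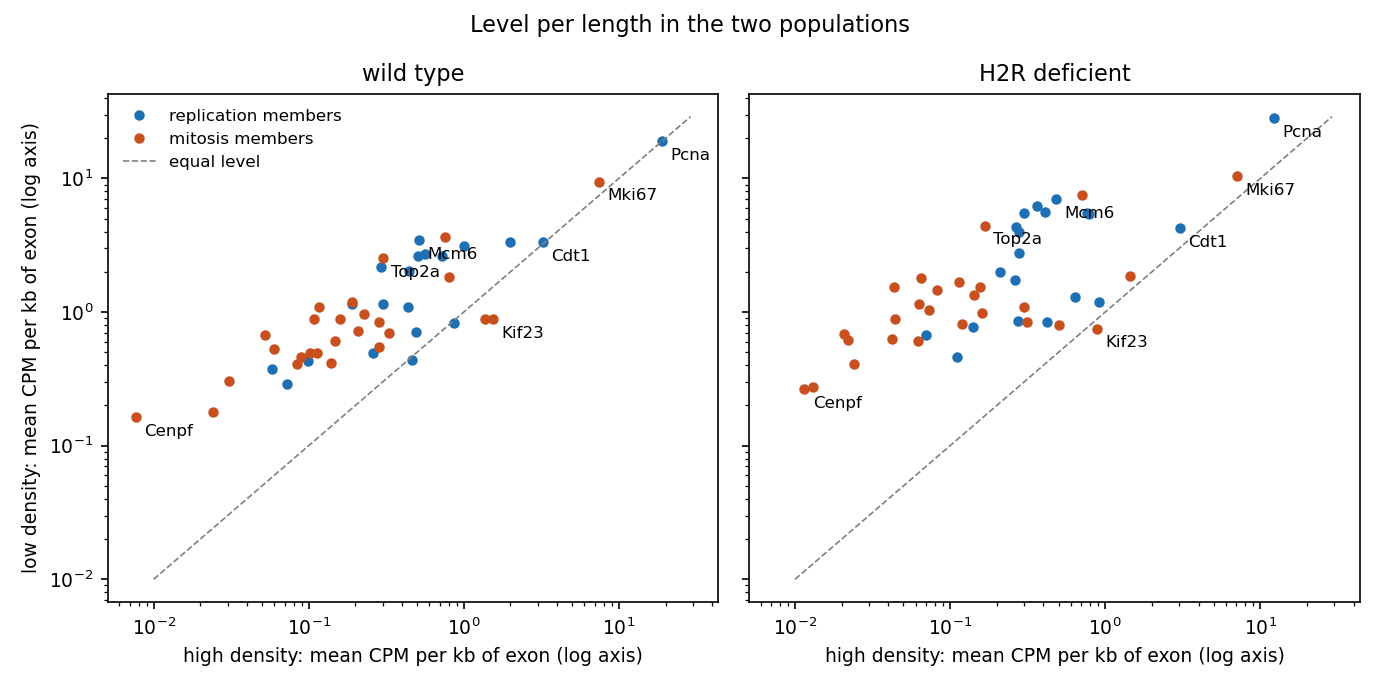
Mean level of each gene in CPM per kilobase of exon at low density (vertical) against high density (horizontal), both on log axes, in wild type and in H2R deficiency. Mki67, Cdt1 and Kif23 lie close to the line of equality in both panels and Pcna in wild type, while Top2a and Cenpf start lower and lie well above it.

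The second question of the design is whether H2R deficiency changed these genes within a population. At high density 0 of 46 were called with edgeR, where 0.208% of all genes were called, and 7 (of 46) had an unadjusted p under 0.05, where 18.7% of all genes did. The median log2 difference of H2R deficient against wild type was -0.32 (all genes -0.05), with 32 of 46 below 0 (53.1% of all genes). Both H2R-deficient libraries lay below both wild-type ones for 16 genes (25.8% of all genes tested) and above for 1. The lowest adjusted p belonged to Mcm4 (-1.34 ± 0.27, edgeR adjusted p = 0.0793), followed by Aurka (-1.44 ± 0.34, 0.102), Rrm1 (-1.06 ± 0.27, 0.106) and Mcm3 (-1.48 ± 0.38, 0.109). DESeq2 called these 4 lower (4.54% of all genes called in either direction), and limma-voom called 0 (0.0201%).

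At low density most values lay above 0. Again 0 of 46 were called with edgeR, where 0% of all genes were called, and 15 had an unadjusted p under 0.05, where 21.0% of all genes did. The median difference was 0.69 (all genes 0.05), and 44 of 46 were above 0 (53.1% of all genes). Without H2R-deficient low-density library 1 the median was 0.33, and without library 2 of that group 1.06. Both H2R-deficient libraries lay above both wild-type ones for 27 genes (33.5% of all genes tested), 19 of 20 for replication and 8 of 26 for mitosis. The fitted difference was above 0 for 20 of 20 and 24 of 26 (medians 0.85 and 0.62). The median SE was 0.31 for replication and 0.44 for mitosis genes. The replication genes with the lowest adjusted p were Mcm7 (1.06 ± 0.27, edgeR adjusted p = 0.11), Mcm2 (1.29 ± 0.35, 0.116), Rrm1 (0.84 ± 0.23, 0.116), Mcm5 (1.09 ± 0.30, 0.116) and Lig1 (0.97 ± 0.27, 0.116). DESeq2 called 6 higher (5.84% of all genes called in either direction) and limma-voom 0 (0.0537%). B cell marker sums were also higher in H2R-deficient than in wild-type low-density libraries, with a fitted difference above 0 for all 12 markers. It was above 0 for 6 of 9 dendritic cell, 7 of 15 T and NK cell and 3 of 6 plasma cell markers. For macrophage markers it was above 0 for 2 of 12, and for neutrophil precursor markers for 2 of 8. No mature neutrophil or erythroid marker tested was above 0. The part of these cells was not tested.

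Whether the density difference itself depends on genotype was tested by the interaction. No gene of the 46 was called with edgeR (0% of all genes), although 45 of 46 had a larger fitted difference in H2R deficiency (52.0% of all genes), with a median interaction of 1.12 (all genes 0.04). An unadjusted p under 0.05 was found for 16 of 46, where 21.1% of all genes had one. Marker lists had shifted values too, in both directions. B cell markers were above 0 for 12 of 12 (median 1.56) and dendritic cell markers for 7 of 9 (median 1.13). So were macrophage markers for 9 of 12 (median 0.72), plasma cell markers for 4 of 6 (0.99) and erythroid markers for 4 of 5 (0.44). Mature neutrophil markers were below 0 for 13 of 13 (median -0.86). T and NK cell markers were below 0 for 10 of 15 (median -0.72) and neutrophil precursor markers for 7 of 8 (median -0.69). The part of these cells in the values of the 46 genes was not tested. The 4 genes with the lowest adjusted p, each 0.0906 in edgeR, were of replication: Mcm3 (2.49 ± 0.48), Mcm4 (2.02 ± 0.36), Rrm1 (1.90 ± 0.35) and Pcna (1.20 ± 0.27). Among mitosis genes the interaction was large but loosely fixed for Bub1 (2.68 ± 0.90) and Ccnb1 (2.49 ± 0.99), and near 0 for Mki67 (0.22 ± 0.30). The fitted values of Cenpf (0.08 ± 1.53), Hells (0.33 ± 0.79) and Gins2 (0.06 ± 0.92) were small too, but their errors leave the size undetermined. Ccnb2 was the 1 gene with a fitted value below 0 (-0.80, 95% interval -2.02 to 0.42). DESeq2 called 6 interactions (6.35% of all genes), and limma-voom 0 (0%). That more genes were called in H2R deficiency than in wild type is therefore not shown to be a difference between genotypes.

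To compare the classes, the mean log2 CPM of the mitosis genes was subtracted from that of the replication genes in each library, a value in which the scaling of the library cancels. It was 1.29 and 1.42 in wild-type high-density libraries and 0.99 and 0.87 in wild-type low-density libraries. In H2R deficiency it was 1.43 and 1.92 at high and 1.10 and 1.45 at low density. Low density was thus below high density in wild type without overlap (-0.43) and with overlap in H2R deficiency (-0.40), where the spread within groups had a pooled SD of 0.22. The means of both classes were higher at low density in both genotypes, by 1.50 for replication and 1.92 for mitosis in wild type and by 2.54 and 2.94 in H2R deficiency. H2R deficient minus wild type was 0.32 at high and 0.35 at low density, and the density difference of this value differed between genotypes by 0.03. The summed counts gave -0.23 for the first and 0.69 for the last of these, and leaving out H2R-deficient high-density library 1 or 2 moved the first to 0.57 or 0.08 and the last to -0.22 or 0.26. The sign of the density value depended on the weighting: the log2 ratio of summed counts gave 0.13 and 0.82 for low against high density, since Mki67 and Pcna dominate the sums. Without those 2 genes, a choice made after their share was seen, it gave -0.11 and -0.12.

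**Figure D5:**
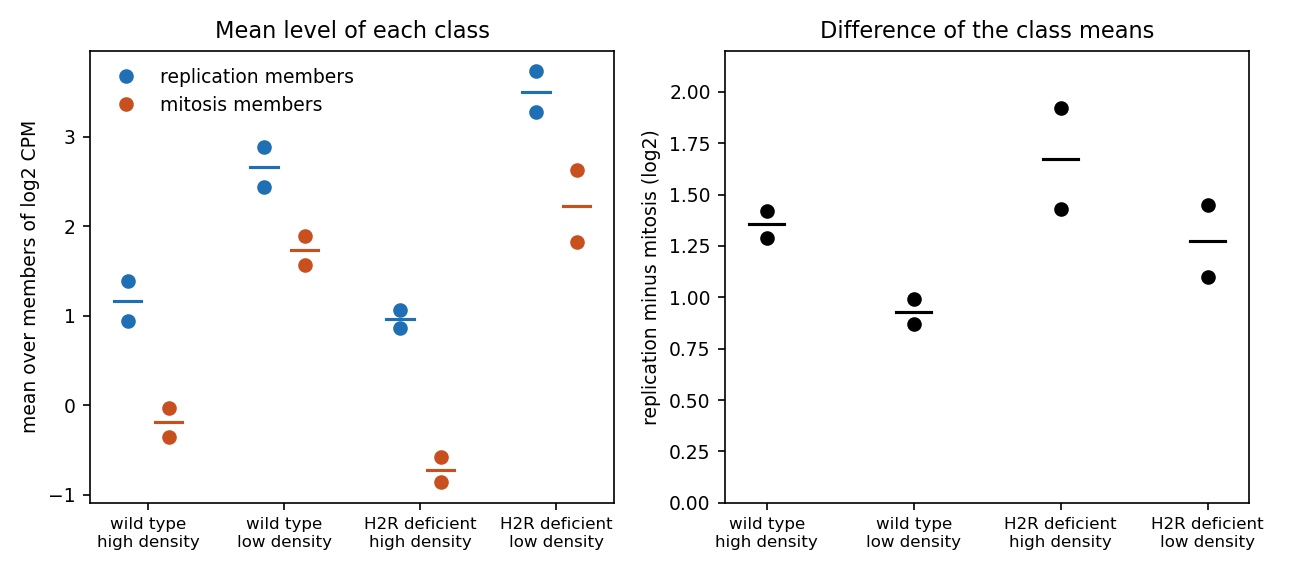
Mean log2 CPM of the 20 replication and 26 mitosis genes in each library (left) and their difference (right), by group, with points for libraries and lines for group means. Both class means are higher in every low-density library than in any high-density one, and the difference ranges from 0.87 to 1.92.

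The libraries of a group did not carry the 46 genes at equal levels. H2R-deficient low-density library 1 was above library 2 for 44 of 46 genes, 18 of 20 and 26 of 26, where it was above for 41.1% of all genes tested. The B cell and dendritic cell marker sums ran the other way in these libraries, 914 and 484 CPM in library 1 against 1149 and 713 CPM in library 2. In the wild-type low-density group library 2 was above library 4 for 39 of 46 genes (51.3% of all genes), and there B cell and dendritic cell marker sums ran the same way. In both groups the library higher for most of the 46 genes had lower mature neutrophil sums, 20864 against 29568 CPM in H2R deficiency and 34770 against 48603 CPM in wild type. Its macrophage sums were higher, 548 against 502 CPM and 698 against 649 CPM. T and NK cell, plasma cell, erythroid and neutrophil precursor sums were lower in it. The part of these cells was not tested.

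Other genes of the same machinery were also mostly called higher in H2R deficiency, and fewer in wild type. Of 45 other replication genes, all tested, 19 were called higher and 0 lower in wild type (median 1.32) and 35 higher and 1 lower in H2R deficiency (median 2.47). Over all genes tested 8.51% were called higher and 4.15% lower in wild type, and 30.0% and 23.9% in H2R deficiency. Pole, the leading-strand polymerase, had means of 0.295 and 4.05 CPM at high and low density in wild type and of 0.367 and 8.18 CPM in H2R deficiency (3.76 ± 0.41 and 4.46 ± 0.40). Prim1, a primase subunit, differed by 2.63 ± 0.36 and 3.62 ± 0.35. The gene called lower was Mcm10, at 32.1 and 24.1 CPM in wild type and 31.8 and 20.6 CPM in H2R deficiency (-0.63 ± 0.21, edgeR adjusted p = 0.0319). Without the TMM factors 0 were called lower in either genotype.

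Of 58 other mitosis genes, 57 were tested, and 23 were called higher and 1 lower in wild type (median 1.97) and 46 higher and 3 lower in H2R deficiency (median 3.25, or 3.22 with the 2 genes at 0 in a group set to their bound). The shares over all genes are those given for the other replication genes. The condensin genes Ncapd2 and Smc2 differed by 2.49 ± 0.32 and 2.19 ± 0.30 in wild type and by 3.36 ± 0.32 and 3.63 ± 0.33 in H2R deficiency. Called lower were Pttg1, securin, in both genotypes (-0.92 ± 0.25 and -1.08 ± 0.25), the phosphatase Cdc25b (-1.14 ± 0.18) and the Cdk subunit Cks2 (-0.87 ± 0.24) in H2R deficiency. Cdc25b was at 86.6 and Cks2 at 35.4 CPM in H2R-deficient high-density neutrophils, against 39.4 and 19.4 CPM at low density. These lower calls rest on the scaling, since without the TMM factors 42 genes were called higher and 0 lower in wild type and 50 higher and 0 lower in H2R deficiency.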

How the data were processed

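The deposited tables hold raw read counts per gene, not normalized, per the file headers. Tools in the submitters' processing notes are STAR 2.5.2b, Trimmomatic 0.36, bcl2fastq 2.17.1.14 and Subread 1.5.2 with its featureCounts, on build GRCm38. The sources used here do not give the strand setting, the annotation release or the treatment of reads with several locations. Identifiers were matched to symbols and exons in GENCODE M21. The 46 genes, the lists of other genes and markers, and the tests were chosen with earlier results of these data known. Genes of known role were chosen for per-library values, with the 2 largest and 2 smallest differences of each class.

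Genes were filtered with filterByExpr by group, which left 14909, and scaled by TMM. All 8 libraries entered 1 robust quasi-likelihood fit of the 4 group means in edgeR 4.0.16 under R 4.3.3, so 4 degrees of freedom remained. The biological coefficient of variation was 0.236. P-values were adjusted over all genes tested. Class means used log2 CPM with a prior count of 2. Counts of paired libraries differed by more than sampling noise (chi-square per degree of freedom 36 to 50.7), so none was treated as a copy. The test was also run on simulated counts with planted changes, and the outcome is not given here. Alternatives were other scalings and filters, DESeq2 1.42.0, limma-voom 3.58.1, each library left out, only the libraries compared, and a replicate block.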

Additional observations from a re-analysis of the deposited data

How the results depend on the processing

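Of the 46 genes, 21 were called higher in wild type under every alternative that used all 8 libraries, and 38 in H2R deficiency. No fitted difference of a called gene reversed under any alternative run. With each library left out, the wild-type count ranged from 1 to 28 and the H2R-deficient count from 33 to 40. Depth limits the low genes: many mitosis genes had few counts at high density.

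DESeq2 called 4 genes between genotypes at high density, 6 at low density and 6 interactions. No filter on low counts gave 5, 11 and 11 (3.90%, 4.84% and 4.31% of all genes called). Without TMM factors 4 interactions were called (4.26% of all genes). The cause of these differences was not tested.

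For replication minus mitosis, the log2 ratio of summed counts gave 0.13 (wild type) and 0.82 (H2R deficiency) for density, -0.23 for genotype at high density and 0.69 for the difference of density effects. Without Mki67 and Pcna it gave -0.11 and -0.12 for density. A prior count of 0.5 gave -0.66 in H2R deficiency. With each library left out, the value ranged from -0.65 to -0.17 in H2R deficiency, from 0.08 to 0.57 for genotype at high density and from -0.22 to 0.26 for the difference of density effects.

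Libraries of the same genotype and number correlated in their deviations at r = 0.155 and 0.326, but with 2 pairs per genotype the numbers were taken as shared numbers only. The replicate block gave 31 calls in wild type, 39 in H2R deficiency and 0 interactions. Of all 14909 genes it called 1648 higher in wild type, 4749 higher in H2R deficiency and 28 interactions. For the genotype comparisons no paired analysis was possible because the groups share only 1 number.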

Other observations

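Regulators of the cell cycle, a list of 36 genes of which 35 were tested, had called genes in both directions on the TMM scale. In wild type 5 were called higher and 2 lower (median 0.41), where 8.51% of all genes tested were called higher and 4.15% lower. In H2R deficiency 17 were called higher and 7 lower (median 0.82), where 30.0% of all genes were called higher and 23.9% lower. Calls in both directions there are thus not particular to this list. Without the TMM factors 18 and 26 were called higher (32.3% and 51.6% of all genes) and 0 lower, so every lower call rests on the scaling. The phosphatase Cdc25a, which opens the way into S phase, had group means of 1.33 CPM at high and 3.77 CPM at low density in wild type and of 0.553 and 6.51 CPM in H2R deficiency (1.50 ± 0.29 and 3.55 ± 0.32, edgeR adjusted p = 0.0182 and 0.000203). The kinase Wee1, which holds Cdk1 inactive, differed by 2.11 ± 0.40 and 3.74 ± 0.42. Cyclin E1 (Ccne1) was called higher in both genotypes (2.16 ± 0.52 and 3.75 ± 0.54), unlike Ccne2 of the 46 genes. Brakes of the cycle were called in both directions in H2R deficiency: the antiproliferative genes Btg1 and Btg2 and the Cdk inhibitors Cdkn1a, Cdkn1b and Cdkn2d lower, and the Cdk inhibitors Cdkn2a, Cdkn2b and Cdkn2c, the pocket protein gene Rbl1 and Trp53 higher. The cyclin gene Ccnd3, which drives the cycle, was called lower (-1.21 ± 0.26). Cdkn1b (p27) had means of 148 CPM at high and 65.5 CPM at low density there (-1.18 ± 0.27, edgeR adjusted p = 0.00627).

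Histone genes were matched by name, and 11 of 69 passed the low-count filter. Of those, 0 were called higher and 1 lower in wild type, and 3 higher and 3 lower in H2R deficiency. Over all genes tested 8.51% were called higher and 4.15% lower in wild type, and 30.0% and 23.9% in H2R deficiency. The histone counts in H2R deficiency lie near those shares. H1f0, called higher in H2R deficiency (2.40 ± 0.29), is a replacement histone that the name rule also took. Hist1h2be was called lower in both genotypes (-1.25 ± 0.22 and -1.79 ± 0.22). Without the TMM factors 2 histone genes were called higher and 0 lower in wild type, and 5 higher and 1 lower in H2R deficiency.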
